A study of Mus musculus with 14 samples.

Results

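C1q is the recognition molecule of the classical complement pathway, and its 3 polypeptide chains are encoded by C1qa, C1qb and C1qc. The 3 genes were taken from the deposited count and TPM tables by their Ensembl identifiers, and they are 3 of the 48794 genes listed there. Their levels and the ratios between them in bulk liver and in the sorted cells were what chose them, so those values are given below as descriptions, without tests. RNA had been sequenced from the livers of wild-type mice that had received no treatment, in 14 libraries. Of these, 12 were made from cells with CD45 on their surface, the leukocyte phosphatase encoded by Ptprc, collected by FACS from liver needle biopsies. A sorted sample was made of 2500, 5000, 10000 or 20000 cells (3 libraries at each number), and 2 libraries of bulk liver tissue served as the control. No label tells whether the libraries within a group are from different mice, and the p-values below therefore cover the spread among these libraries alone, which could be technical.

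In the protein, an A, a B and a C chain wind together into a collagen-like stalk that ends in a globular head, and several such stalks form a bouquet. The heads bind antibody on a target, C-reactive protein or dying cells, and the stalks carry the proteases C1r and C1s, which then cut C4 and C2. Most complement proteins of plasma are made by hepatocytes, whereas C1q is made mainly by tissue macrophages, which in the liver are the Kupffer cells, and by some dendritic cells.

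The 3 genes lie side by side on the minus strand of chromosome 4 (GRCm38, GENCODE M21), within 18675 bases. C1qb (ENSMUSG00000036905) covers bases 136880129 to 136886187, C1qc (ENSMUSG00000036896) bases 136889804 to 136893065, and C1qa (ENSMUSG00000036887) bases 136895917 to 136898803. The gap is 3616 bases between C1qb and C1qc and 2851 bases between C1qc and C1qa. All 3 are protein-coding. The nearest annotated genes were near silent or far lower. Ephb2, an ephrin receptor gene 44141 bases from C1qb, had 1 count over both bulk libraries and 58 over the 12 sorted ones. Epha8, another ephrin receptor gene, 30616 bases from C1qa, had 0 and 1 counts. The next gene on each side was Gm37583, with 1 and 5 counts, and Zbtb40, a zinc finger gene, with 48 and 1513 counts and a mean TPM of 0.375 in bulk liver and 2.46 in sorted cells.

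The sequences just upstream of the start sites are shown for the subunit genes found in the RefSeq promoter table of GRCm38.p6. It held 2 of the 3, C1qb and C1qc. The stretches are chr4:136886201-136886450 for C1qb, which is 250 bases, and chr4:136893066-136893164 for C1qc, which is 99 bases since it was kept upstream of the GENCODE start as well as the RefSeq start. Both are on the minus strand and are written 5′ to 3′, and capitals mark the letters AGGAAG, the core bound by ETS factors such as PU.1, and TGCTGA, letters bound by the MAF family, on either strand.
C1qb: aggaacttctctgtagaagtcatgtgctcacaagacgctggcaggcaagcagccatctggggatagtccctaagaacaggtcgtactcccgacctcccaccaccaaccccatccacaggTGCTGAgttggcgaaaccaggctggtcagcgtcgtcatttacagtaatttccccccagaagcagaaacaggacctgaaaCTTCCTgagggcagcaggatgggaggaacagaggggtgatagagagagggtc
C1qc: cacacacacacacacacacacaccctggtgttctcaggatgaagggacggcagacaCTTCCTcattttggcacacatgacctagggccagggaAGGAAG

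AGGAAG matched C1qb at 1 place, 52 to 47 bases before the RefSeq start, and these letters were in 29.5% of the 32851 promoters over the same 250 bases. In C1qc it matched at 2 places, 194 to 189 and 157 to 152 bases before the RefSeq start, against 12.0% of promoters with a match in the same 99-base window. TGCTGA matched C1qb once, 131 to 126 bases before the start (16.1% of promoters), and did not match in C1qc (6.43%). Neither stretch held the repeat bound by interferon regulatory factors (2.98% and 1.297% of promoters over the same windows) or the composite element bound by PU.1 with such a factor (2.30% and 0.892%), whose first letters overlap those of the ETS core. Such a match describes the letters only.

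Total counts per library ranged from 6723357 to 14496314. Replicate libraries differed by more than sampling noise, with a chi-square statistic per degree of freedom of 1.52 between the bulk libraries and 2.22 to 13.04 between sorted libraries of one cell number, so none were merged. Markers of the labelled cell type were checked first. Ptprc was at 21.2 ± 5.44 CPM (SD, n = 2) in bulk liver and 2246 ± 67.6 CPM (n = 12) in sorted cells, where CPM are counts scaled to library size (trimmed mean of M values) over all 14 libraries. Alb, the hepatocyte gene for serum albumin, was at 42918 ± 1124 and 43.2 ± 7.47 CPM. The TMM factors were 0.486 to 0.492 in bulk liver and 1.12 to 1.15 in sorted cells. In samples such as these, fewer cells of a type and less RNA per cell cannot be told apart.

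All 3 subunits were well covered in each library. C1qa had 283 to 653 counts, C1qb 490 to 1247 and C1qc 435 to 1289, and by TPM (a share of all transcripts that allows for transcript length) C1qb was between the 963rd and the 1933rd most abundant gene. In the least covered case, the 283 counts of C1qa in 20000-cell replicate 1, the 95% exact binomial interval was 37.3 to 47.3 CPM of the library total, and such intervals cover counting error only.

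On the TMM scale each subunit was at its highest level in bulk liver, and among the sorted groups 20000 cells had the lowest mean. C1qa, the A chain, was at 85.6 and 103 CPM in the bulk libraries, at 49.9, 56.3 and 65.9 CPM with 2500 cells, at 44.8, 40.2 and 40.6 CPM with 5000 cells, at 44.4, 57.7 and 46.0 CPM with 10000 cells and at 37.7, 36.3 and 38.3 CPM with 20000 cells. Both bulk libraries were above all 12 sorted ones, and the third 2500-cell library was the highest of those. The 20000-cell libraries lay below every other library, and the 5000- and 10000-cell groups overlapped.

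C1qb, the B chain, was at 131 and 162 CPM in bulk liver, at 82.0, 89.3 and 113 CPM with 2500 cells, at 78.1, 70.0 and 72.03 CPM with 5000 cells, at 92.4, 110 and 93.2 CPM with 10000 cells and at 74.6, 76.6 and 63.4 CPM with 20000 cells. The 5000- and 20000-cell libraries overlapped with each other and lay below the 2500- and 10000-cell libraries, which also overlapped. C1qc, the C chain, was at 118 and 124 CPM in bulk liver, at 78.7, 79.4 and 98.1 CPM with 2500 cells, at 73.3, 59.7 and 74.6 CPM with 5000 cells, at 85.7, 114 and 83.4 CPM with 10000 cells and at 58.0, 64.4 and 56.2 CPM with 20000 cells. Its groups fell in the same order as those of C1qb, and its highest sorted library was the second 10000-cell one, which for C1qb came just below the third 2500-cell one.

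In rising order of mean CPM, the groups ran 20000, 5000, 10000, 2500 cells and bulk liver for C1qa, and 20000, 5000, 2500, 10000 cells and bulk liver for C1qb and C1qc. The steps from 2500 to 10000 cells, in either order, and from 20000 to 5000 cells left the libraries overlapping, except that for C1qa the 20000- and 5000-cell libraries did not overlap (37.5 ± 1.03 against 41.8 ± 2.55 CPM, SD, n = 3 each). The step from 5000 to 2500 cells separated all libraries for C1qb (73.4 ± 4.21 to 94.7 ± 16.1 CPM) and C1qc (69.2 ± 8.21 to 85.4 ± 10.98 CPM). Groups of 3 libraries can separate by chance, and the share of all genes that separate between these cell numbers was not counted. Cell number and C1q level thus followed no single order, since 10000 cells lay among the higher groups and 5000 cells among the lower.

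**Figure D1:**
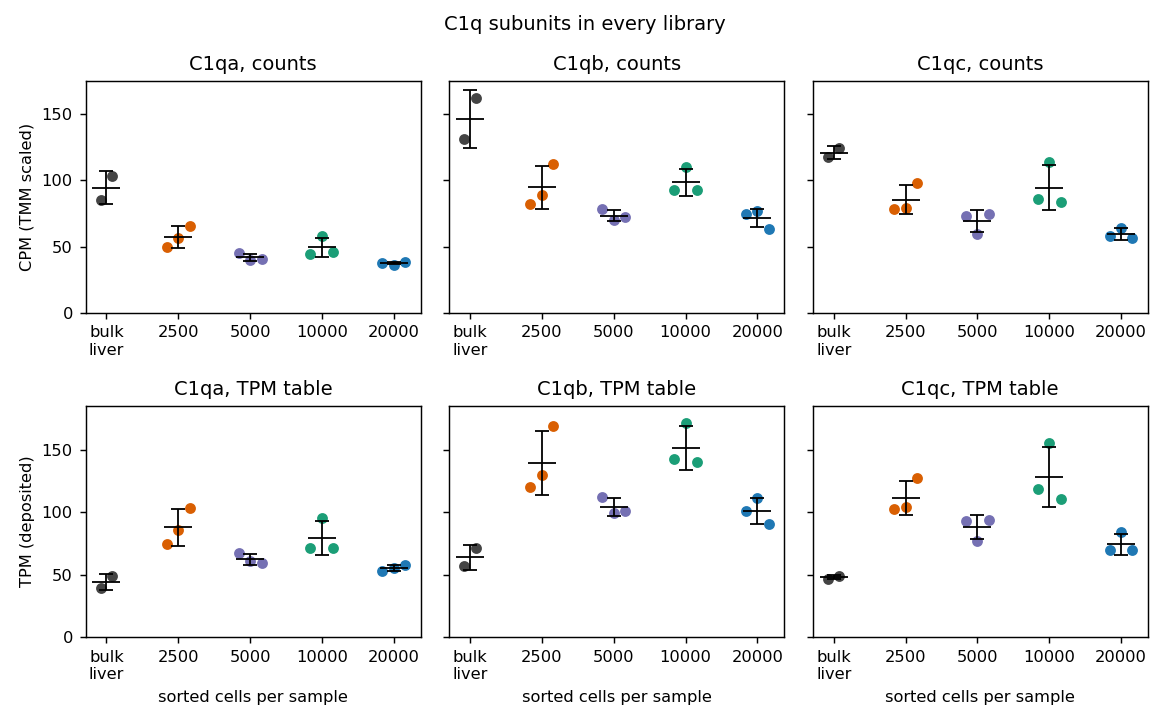
Level of each C1q subunit (columns) by group (x axis; numbers are sorted cells per sample), as TMM-scaled CPM in the upper row and as deposited TPM in the lower row. Points are libraries, horizontal bars are means and whiskers are 1 SD (n = 2 for bulk liver, 3 for each cell number). Bulk liver is the highest group in CPM and the lowest in TPM, while the order among the 4 cell numbers is much alike in both rows.

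The order of bulk liver against sorted cells turned with the scale. In the deposited TPM, bulk liver had the lowest C1qa (39.6 and 48.6 TPM, against 52.9 to 103 TPM in sorted libraries), C1qb (56.8 and 71.1, against 90.7 to 171 TPM) and C1qc (47.0 and 49.3, against 69.5 to 156 TPM). No sorted library overlapped bulk liver on this scale either, but on the other side. How many of all genes separate the sample types on either scale was not counted. With TMM, 80.3% of tested genes passed the edgeR test between them. On CPM of the library total, C1qa (42.1 and 50.3 in bulk liver, 40.7 to 74.2 in sorted cells) and C1qb (64.4 and 78.9 against 70.9 to 127) overlapped, and C1qc did not (57.9 and 60.5 against 62.7 to 131). Library totals and TPM express a gene as a share of all RNA in a sample, whereas TMM aligns the samples on the bulk of their genes.

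As log2 differences of sorted cells minus bulk liver, TMM gave -1.04 (SE 0.11) for C1qa, -0.81 (SE 0.11) for C1qb and -0.67 (SE 0.12) for C1qc, with a median of 0.17 over the 16294 genes tested. Library totals gave 0.16, 0.39 and 0.53, with a median over genes of 1.37. On log2(TPM + 1), which slightly understates the change of low genes, the subunits were at 0.66, 0.92 and 1.01 and the median over the same genes at 1.19. Relative to the median gene, the subunits were lower in sorted cells, at -1.21, -0.98 and -0.84 with TMM and with library totals. Scaling shifts all genes about alike, so these scales had to give nearly the same values here. In TPM the subunits were at -0.53, -0.26 and -0.18. That position depends on the genes taken: over all genes with a TPM of at least 1 in some library, the median was 1.05, close to C1qc at 1.01. In this comparison 80.3% of all tested genes passed the edgeR test, 41.8% higher and 38.5% lower in sorted cells, and nothing is read from where the subunits fall, since they were chosen on it.

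**Figure D2:**
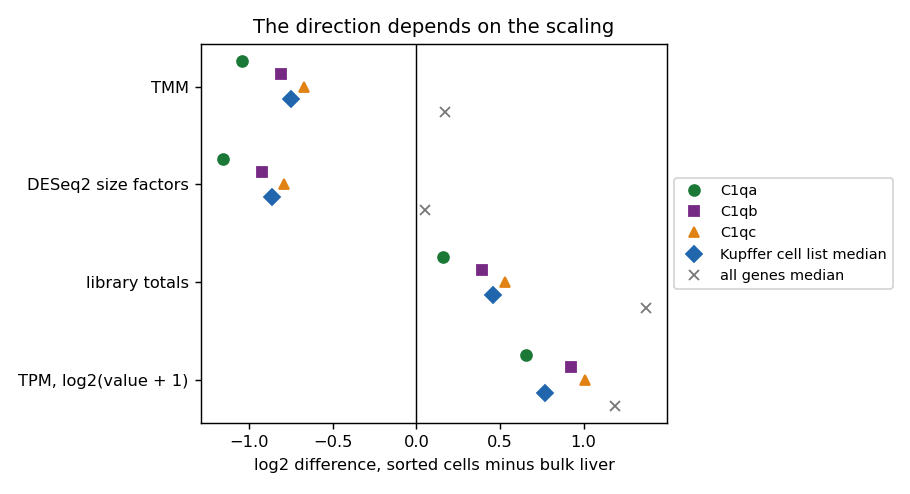
Log2 difference of sorted cells minus bulk liver (x axis) under 4 scalings (y axis) for the 3 subunits, the median of the 13-gene Kupffer cell list and the median of all tested genes. The subunits lie below 0 with TMM and DESeq2 size factors and above 0 with library totals and TPM, but left of the median of all genes (crosses) in each row.

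The proportions of the subunits do not depend on scaling between libraries, and C1qb was the most abundant. By TPM it was the highest subunit and C1qa the lowest in 14 of 14 libraries. In bulk liver C1qa made up 27.6% and 28.8% of the summed TPM, C1qb 39.6% and 42.1%, and C1qc 32.8% and 29.2%. Over the 12 sorted libraries the shares were 24.2% ± 1.83 (SD) for C1qa, 42.0% ± 1.70 for C1qb and 33.8% ± 1.95 for C1qc.

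C1qa was the subunit whose share did not overlap between bulk liver and sorted cells. Its share in sorted libraries ran from 21.6% to 26.8%, with a median of 24.2%, below both bulk libraries, and the same separation appeared in shares of counts (19.96% to 25.0% against 25.6% and 26.5%). The ratio of C1qa to C1qb in TPM was 0.691 ± 0.00977 (SD, n = 2) in bulk liver and 0.577 ± 0.0560 (n = 12) in sorted cells. The shares of C1qb (39.6% to 45.2% in sorted cells) and C1qc (31.2% to 37.1%) overlapped with bulk liver. Across cell numbers the C1qa share was 25.9% ± 0.844 with 2500 cells, 24.5% ± 1.18 with 5000, 22.1% ± 0.507 with 10000 and 24.1% ± 2.16 with 20000 cells (n = 3 each), so that 10000 cells were lower than 2500 and 5000 cells in every library. Neither difference in the C1qa share was tested, and groups of 2 or 3 libraries can separate by chance. How often shares within other sets of genes separate in this way was not counted.

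The order of C1qa and C1qc rests on the transcript lengths used. With counts divided by the exon bases of GENCODE M21, which are 1040 for C1qa, 1088 for C1qb and 1931 for C1qc, C1qb was still the highest in 14 of 14 libraries, but C1qc was the lowest in 12 of 14. The sorted means were then 27.6% for C1qa, 47.9% for C1qb and 24.5% for C1qc.

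**Figure D3:**
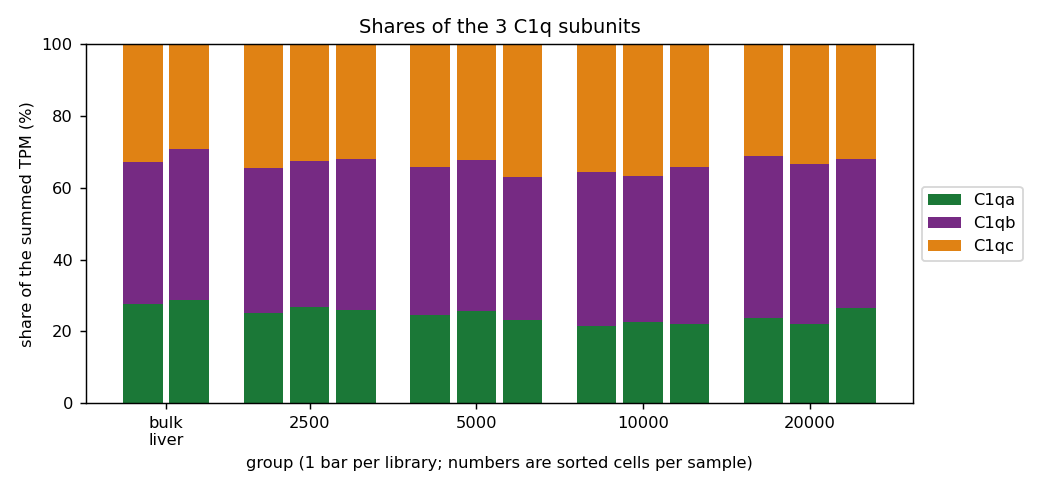
Share of each subunit in the summed TPM of the 3 (y axis, percent) in every library, 1 bar per library, grouped by bulk liver and sorted cells per sample. C1qb is the widest band in all 14 bars, and the C1qa band is wider in both bulk bars (27.6% and 28.8%) than in any sorted bar.

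Within the sorted cells the subunits rose and dipped together from library to library. Across the 12 libraries the Pearson correlation of log2 CPM was 0.86 between C1qa and C1qb (Spearman 0.80), 0.84 between C1qa and C1qc (0.84) and 0.93 between C1qb and C1qc (0.94). With the 2 libraries farthest from the median left out, r was 0.70, 0.74 and 0.87. After the mean of each cell number was removed, r over the 12 libraries was 0.80, 0.77 and 0.82. These are descriptions over libraries that share a sequencing depth and TMM factor for all 3 genes; the mean of the subunits had r = 0.09 with the library total.

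Timd4 and Clec4f ranked first among the genes most alike to C1q across the sorted libraries. Of the 11070 genes compared over the 12 sorted libraries (mean of at least 5 CPM), the most alike to the mean of the subunits was Timd4 (r = 0.92), a phosphatidylserine receptor of resident macrophages, followed by Clec4f (r = 0.92), a lectin gene specific to Kupffer cells in the mouse. Clec4f was at 282 ± 40.8 CPM in bulk liver (SD, n = 2) and at 159 ± 36.1, 139 ± 16.03, 172 ± 33.7 and 120 ± 4.61 CPM (n = 3 each) with 2500, 5000, 10000 and 20000 cells, which is the order of C1qb. Timd4 was at 18.5 ± 5.71 CPM in bulk liver and at 12.7 ± 2.24, 9.65 ± 1.28, 14.8 ± 3.22 and 9.23 ± 1.07 CPM in the same order. Fcna, the ficolin A gene, a lectin-pathway recognition protein built like C1q from collagen-like stalks, was seventh (r = 0.86). After the mean of each cell number was removed, r was 0.86 for Timd4, 0.91 for Clec4f and 0.57 for Fcna.

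The other 7 of the 10 most alike were Zyx, a focal adhesion gene (r = 0.88), Jmjd6 (0.88), Nefh, a neurofilament gene (0.87), Vrk3 (0.86), Pola2, a subunit gene of DNA polymerase alpha (0.85, and 0.47 within cell numbers), Gnl2 (0.85) and Rpa2, a gene for single-strand DNA binding (0.85). Unlike Timd4, Clec4f and Fcna, these genes had higher CPM in sorted cells than in bulk liver, and Nefh had no count in bulk liver. Over all genes compared the median r was 0.02, and the 10 most alike thus hold genes of unlike kinds. Of the 13 genes of the Kupffer cell list, 5 were among the 100 most alike, while Cd68 (r = -0.10), Hmox1 (r = 0.00) and Adgre1 (r = 0.13), chosen after their values were seen, were not. Within cell numbers these 3 were at 0.34, 0.34 and 0.32, above Cd5l, one of the 5, at 0.30, and Marco was at -0.13. Cd68 and Adgre1 are broad macrophage and monocyte genes, and Hmox1 is the haem-degrading oxygenase. Also outside the 100 were Vsig4 (r = 0.63), Csf1r (0.60), Marco (0.57), Folr2 (0.52) and Cd163 (0.34). Of these, Vsig4, Marco and Folr2 are largely limited to resident macrophages.

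The Kupffer cell list was split between bulk liver and sorted cells. With TMM, 9 of its 13 genes were lower in sorted cells by edgeR's quasi-likelihood test (p under 0.05 after Benjamini-Hochberg adjustment), 3 (Cd68, Csf1r and Adgre1) were higher and 1 did not pass, and the median log2 difference was -0.75, against 0.17 over all genes. Of all genes, TMM called 38.5% lower and 41.8% higher. With library totals 0 were lower, 7 higher and 6 did not pass, with a median of 0.46 against 1.37; over all genes library totals called 88.3%, with 65.9% higher and 22.4% lower. Slc40a1, the iron exporter ferroportin, was at 448 ± 30.8 CPM in bulk liver and 212 ± 35.1 CPM in sorted cells (log2 difference -1.09, SE 0.10, adjusted p = 9.72e-09), and at 0.12 with library totals (adjusted p = 0.299). Csf1r, the receptor for the macrophage growth factor CSF1, which monocytes also carry, was at 149 ± 26.3 and 684 ± 49.3 CPM (2.20, SE 0.10, adjusted p = 1.17e-13).

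The amount of C1q per amount of Kupffer cell marker depended on which markers were summed. Over all 13 genes, the summed C1q CPM was 0.264 ± 0.00487 of the summed marker CPM in bulk liver (SD, n = 2) and 0.135 ± 0.0169 in sorted cells (n = 12). Csf1r made the largest contribution to that sum in sorted cells, and without it the ratios were 0.296 and 0.243. Over 6 markers that are largely limited to resident macrophages (Clec4f, Timd4, Vsig4, Cd5l, Marco and Folr2), which were picked after the values had been seen, the ratios were 0.619 ± 0.0389 in bulk liver and 0.684 ± 0.0454 in sorted cells, and the libraries overlapped. By cell number this ratio was 0.681 ± 0.0487 with 2500 cells, 0.654 ± 0.0724 with 5000, 0.713 ± 0.0341 with 10000 and 0.686 ± 0.000632 with 20000 cells, again overlapping. The summed monocyte markers went from 25.7 to 29.9 CPM in bulk liver to 2995 to 3779 CPM in sorted cells with 0 of 8 at 0, and the summed dendritic cell markers from 23.5 to 24.3 CPM to 938 to 1129 CPM with 0 of 8 at 0. Their part in these ratios was not tested.

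**Figure D4:**
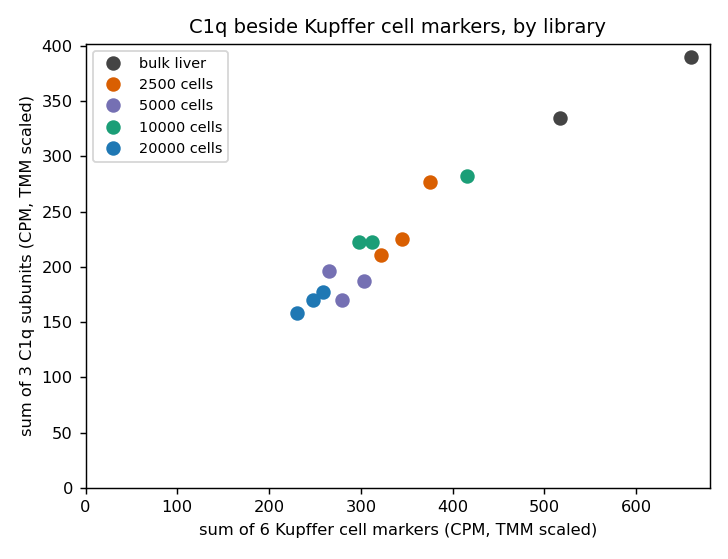
Sum of the 3 C1q subunits (y axis) against the sum of 6 Kupffer cell markers (x axis), both in TMM-scaled CPM, with 1 point per library coloured by group. Both sums are lowest with 20000 cells and highest in bulk liver on this scale, and C1q stays between 0.592 and 0.747 of the markers.

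Transcripts for the partners of C1q in the C1 complex were nearly absent from sorted cells. Of the 6 genes for the C1 proteases and their inhibitor, 4 could be tested, and all 4 were lower in sorted cells, with a median log2 difference of -8.43 (-7.22 with library totals). Of all genes, 38.5% were lower with TMM. C1ra, the C1r protease, was at 418 ± 3.19 CPM in bulk liver (SD, n = 2) and 2.07 ± 0.556 CPM in sorted cells (n = 12; log2 difference -7.66, SE 0.09, adjusted p = 1.18e-23). C1s1, the C1s protease, was at 769.6 ± 24.5 and 1.02 ± 0.417 CPM (-9.54, SE 0.13, adjusted p = 1.24e-20). Serping1, the inhibitor that removes both proteases from C1, was at 2005 ± 14.8 and 3.52 ± 1.11 CPM (-9.19, SE 0.08), and C1rl, a C1r-like protease gene, fell by 6.87. C1rb had 1 count in bulk liver and 0 in sorted cells, and C1s2 had 0 in both. Both are close copies of C1ra and C1s1, so how reads were divided between copies is uncertain.

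The balance of C1q to its proteases differed by more than 100 times between the sample types. Per length, C1ra, C1s1 and their copies C1rb and C1s2 together were at 289 ± 0.375 TPM in bulk liver and 2.90 ± 0.757 TPM in sorted cells. The summed C1q TPM over that sum was 0.497 and 0.585 in the bulk libraries and had a mean of 109 ± 41.4 in sorted cells, from 69.6 to 218. Since both sums come from one library, scaling does not touch this ratio.

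Genes of the classical pathway after C1 followed the protease genes. All 4 were lower in sorted cells, with a median of -6.53, where 38.5% of all genes were lower with TMM. C4b, the mouse C4 gene, was at 1693 ± 134 and 15.4 ± 6.64 CPM (-6.81, SE 0.28, adjusted p = 3.11e-09), and C4a, a near-identical copy whose reads may be shared with C4b, fell by 7.79. C2 was at 92.1 ± 1.95 and 1.20 ± 0.376 CPM (-6.26, SE 0.18). C3, the hub of all 3 pathways, was at 6559.6 ± 572 and 117 ± 16.2 CPM (-5.81, SE 0.11, adjusted p = 2.19e-15), and per length it was the highest of these genes in sorted cells, at 36.02 TPM.

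The other recognition routes were mostly of the same kind. Of all genes, 38.5% were lower with TMM and 22.4% with library totals. All 7 tested lectin pathway genes of 8 were lower with TMM, such as Mbl2, a mannose-binding lectin gene (702 ± 19.2 and 0.579 ± 0.414 CPM, -10.29), and Masp2, its protease (-7.07). With library totals 6 were lower and 1 did not pass. Fcna stood apart at 105 ± 12.1 and 46.3 ± 8.05 CPM (-1.19, SE 0.11, adjusted p = 9.50e-09), close to the C1q subunits, and was at 0.02 with library totals (adjusted p = 0.884). In the alternative pathway Hc, the gene of C5, was lower (-9.03), and Cfp, the gene of properdin, which leukocytes make, was higher in sorted cells (62.4 ± 6.20 and 106 ± 10.99 CPM, 0.76, SE 0.10, adjusted p = 8.74e-07). Cfb, factor B, was lower (-5.79), but at 13.6 CPM against 423 TPM in bulk liver its counts and TPM disagree, and its counts are doubtful. All 5 tested genes of the terminal pathway were lower, among them C9 (-9.90), C8g (-7.99) and C6 (-6.09).

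Among complement regulators, 6 of 9 were lower, 1 was higher and 2 did not pass with TMM, against 38.5% lower and 41.8% higher of all genes. With library totals 6 were lower, 3 higher and 0 did not pass, against 22.4% lower and 65.9% higher of all genes. Clu, clusterin, went from 3650.5 ± 54.1 to 6.03 ± 1.61 CPM (-9.26) and Vtn, vitronectin, from 4628 ± 117 to 9.49 ± 2.86 CPM (-8.96). Cd55, which breaks up C3 convertases on the cell surface, was the one called higher with TMM, from 41.4 ± 2.60 to 504 ± 18.8 CPM (3.60, SE 0.08, adjusted p = 2.84e-19).

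Receptors and binding proteins of C1q were split, much as all genes were. Of 10 genes, 9 were tested, and 4 were higher and 4 lower in sorted cells. Of all genes, 41.8% were higher and 38.5% lower. Cr2, a complement receptor of B cells, rose from 1.44 ± 0.140 to 205 ± 18.2 CPM (7.14, SE 0.19), Itga2, an integrin chain, by 4.36 (SE 0.40), Lair1, an inhibitory receptor for collagen and for the C1q stalk, from 8.24 ± 0.299 to 104 ± 8.83 CPM (3.66, SE 0.15) and Itgb1, an integrin chain, by 0.42 (SE 0.05). Lower were Lrp1, a scavenging receptor (-2.39, SE 0.09), Scarf1, a scavenger receptor (-2.20, SE 0.30), Calr, calreticulin (-1.88, SE 0.04), and C1qbp, a mostly mitochondrial protein that binds the globular heads (-1.77, SE 0.09). Library totals gave the same direction for these 8. Cd93, a surface glycoprotein of endothelial and myeloid cells, was at 6.04 ± 1.298 and 8.56 ± 1.99 CPM (0.47, SE 0.22, adjusted p = 0.0511), and passed as higher with library totals (adjusted p = 6.05e-07) and without a filter (0.0363). It also passed in 3 of 14 fits that left out 1 library (the first of bulk liver, the second with 2500 or the first with 20000 cells; adjusted p down to 0.0297). Megf10, an engulfment receptor, had 0 and 2 counts and was not tested.

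Receptors for the C3 and C5 fragments that the pathway sets free were higher in 4 of 7 cases, lower in 1 and did not pass in 2 with TMM. With library totals 6 were higher, 0 lower and 1 did not pass. Of all genes, 41.8% were higher and 38.5% lower with TMM, and 65.9% and 22.4% with library totals. Itgax and Itgb2, the chains of a receptor for cleaved C3, both rose: Itgax had 2 counts over both bulk libraries and 8508 over the sorted ones, and Itgb2 went from 21.3 ± 2.11 to 1001 ± 47.9 CPM (5.55, SE 0.09). C5ar1, the C5a receptor, rose by 3.27 (SE 0.26). Of the 19 C1q and TNF related genes, which share the globular domain of C1q, 8 could be tested. Emilin2, an extracellular matrix protein with such a domain, rose from 4.955 ± 0.956 to 226 ± 20.5 CPM (5.51, SE 0.18) and Caprin2, an RNA-binding protein gene named after its value was seen, by 1.28 (SE 0.38), while C1qtnf1 (-3.99, SE 0.25) and Emilin1 (-0.69, SE 0.13) were lower, the latter at 0.52 with library totals. Over all 9 lists, 56 of 73 complement genes were tested, of which 12 were higher, 35 lower and 9 did not pass, and with library totals 20 were higher, 32 lower and 4 did not pass. With TMM 83.9% of them passed, near the 80.3% of all genes, with 21.4% higher and 62.5% lower against 41.8% and 38.5% of all genes. With library totals 35.7% were higher and 57.1% lower, against 65.9% and 22.4% of all genes.

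**Figure D5:**
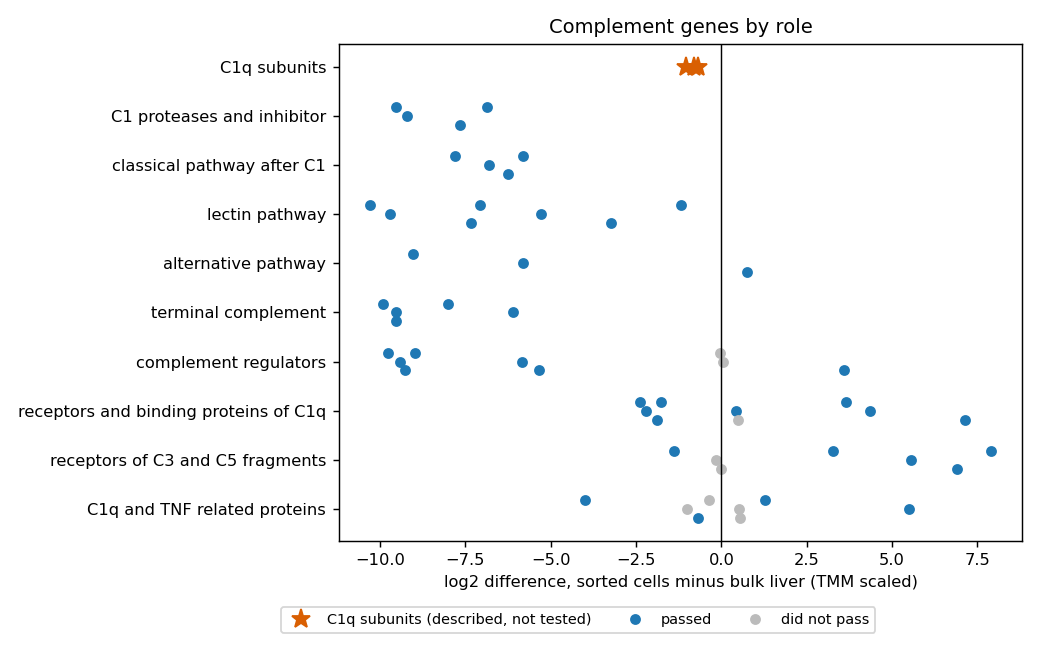
Log2 difference of sorted cells minus bulk liver (x axis, TMM-scaled counts) for complement genes by role (y axis), where each point is a gene that could be tested and blue marks an edgeR adjusted p under 0.05. The C1q subunits (stars, described without a test) lie between -1.04 and -0.67 with TMM, and above 0 with library totals or TPM, and all tested C1 proteases and classical pathway genes lie below -5.

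Genes that work beside C1q in macrophages went in several directions, as did all genes (41.8% higher and 38.5% lower with TMM). Of 10 transcription factor genes, 3 were higher in sorted cells, namely Irf8 (17.5 ± 0.935 to 840 ± 44.6 CPM, 5.58), Spi1, which encodes PU.1 (16.7 ± 4.29 to 306 ± 19.0 CPM, 4.19), and Zeb2 (19.4 ± 0.138 to 169 ± 10.6 CPM, 3.13), 5 were lower and 2 did not pass. With library totals 6 of 10 were higher and 2 lower, against 65.9% and 22.4% of all genes. Of 9 tested genes for the uptake of dying cells, a task that C1q serves as a bridge, 6 were lower, 2 higher and 1 did not pass with TMM. Pros1, protein S, which bridges dying cells to receptors, fell by 2.46 (SE 0.10). Cd36, a scavenger receptor, rose by 0.23 (SE 0.10, adjusted p = 0.0484), a call that ended with DESeq2's size factors (0.11, adjusted p = 0.315) and its test (0.13, adjusted p = 0.321). The Cd36 call also ended in 9 of 14 fits that left out 1 library, at an adjusted p of up to 0.168 without the second bulk liver library. Axl, a receptor for such bridges, was at 52.6 ± 2.75 and 63.8 ± 11.6 CPM (log2 difference 0.27, SE 0.14, adjusted p = 0.0914), and passed as higher with library totals (adjusted p = 2.72e-08) and without a filter (0.000165), and in 2 of 14 fits that left out 1 library (the first with 2500 or the first with 20000 cells; adjusted p down to 0.0387). With library totals 4 of 9 were higher and 3 lower, beside the same shares of all genes.

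Between the smallest and the largest cell number, all 3 subunits had the higher mean with 2500 cells. The log2 difference of 2500 minus 20000 cells was 0.62 (SE 0.12) for C1qa, 0.41 (SE 0.11) for C1qb and 0.53 (SE 0.13) for C1qc, against a median of 0.01 over the 14795 genes tested. In this comparison 0.419% of tested genes passed, 0.0811% higher and 0.338% lower with 2500 cells. The 3 values lay between 0.27 and 0.71 whichever library was left out. Neither this range nor the SE serves as a test, since the subunits were chosen on these levels, and nothing is read from them.

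Between cell numbers few genes passed, within the complement lists or outside them. Of 51 complement genes tested between 2500 and 20000 cells, 0 were higher and 1 was lower, where 0.0811% of all genes were higher and 0.338% lower. An unadjusted p under 0.05 (edgeR) was found for 11, which is 21.6% of them against 13.3% of all genes. DESeq2 called 2 higher. The gene that was lower was Cd93 (log2 difference -0.83, SE 0.18, adjusted p = 0.0463). Its call ended in 11 of 12 fits that left out 1 library, at an adjusted p of up to 0.168, and was kept only without the third 2500-cell library. Across all 4 cell numbers, 0 of the 51 passed (0.297% of all genes did), 11 had an unadjusted p under 0.05 and DESeq2 called 3. Fcna was at 0.48 (SE 0.13) for 2500 minus 20000 cells, with an adjusted p of 0.106.

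In the Kupffer cell list, 1 of 13 genes passed between 2500 and 20000 cells, and the median log2 difference was 0.30. That gene was Cd5l, which encodes a protein secreted by macrophages (0.67, SE 0.14, adjusted p = 0.0436), named because it was the only one; its call ended in 7 of 12 fits without 1 library, at an adjusted p of up to 0.236, and in the fit on all 14 libraries (0.0895). Clec4f was at 0.41 (SE 0.16, adjusted p = 0.273) and Timd4 at 0.46 (SE 0.19, adjusted p = 0.310). The summed hepatocyte markers ran from 238 to 271 CPM with 2500 cells and from 239 to 277 CPM with 20000 cells, and the summed monocyte markers from 3265 to 3373 and from 3546 to 3779 CPM, without overlap. The part of the monocyte markers in the C1q differences was not tested.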

How the data were processed

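For each of the 48794 genes the authors deposited a raw count (whole numbers), a TPM and a variance-stabilised score for each sample, in 3 tables. The score was used only in an alternative. The submitters' processing notes name featureCounts 1.5.1, RSEM 1.3.0, STAR 2.5.2b, DESeq2 1.34.0, FastQC 0.11.5 and GRCm38 without roles; strand, filters and annotation are not given in the sources used here. RNA had been prepared by column with DNase and amplified by SMART-seq v4, per the labels' protocols. The name of 1 column had an extra character in each table and was matched by the sample's title, and 0 columns were left unmapped. Of the gene IDs, 48434 had a symbol and coordinates in GENCODE M21. In 8358 genes counts were above 0 while the deposited TPM was 0 in some library.

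Counts were fitted with the edgeR 4.0.16 quasi-likelihood test (R 4.3.3, filterByExpr, TMM, Benjamini-Hochberg, threshold 0.05), with a mean per group. The mean of the 4 sorted groups was set against bulk liver over 14 libraries, and cell numbers were compared over the 12 sorted ones. CPM are on TMM scale over 14 libraries, except for correlations, which used TMM over the 12. A count of 0 over bulk liver allows up to 3 counts, or 0.392 CPM. Alternatives were DESeq2 1.42.0 (its test and its size factors), library totals, no filter, a replicate block, libraries left out, TPM with a pseudocount of 1 or 0.1 and other marker sums. The procedures were tested on simulated data. Named genes were all members of the first 2 complement lists and of the C1q receptors, the 3 with the highest CPM of other lists, the 2 highest of marker lists, the 10 most alike to C1q and the neighbours. The members and lists were chosen with earlier results of these data known.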

Additional observations from a re-analysis of the deposited data

How the results depend on the processing

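The direction of C1q between sorted cells and bulk liver turned with library totals and with the deposited TPM, which also differ from the counts in quantification and in allowing for length. C1qa, C1qb and C1qc were at 0.16, 0.39 and 0.53 with library totals, 0.66, 0.92 and 1.01 on log2(TPM + 1) and 0.67, 0.93 and 1.02 on log2(TPM + 0.1), but at -0.86, -0.63 and -0.49 without a filter and -1.73, -1.26 and -1.13 on the deposited score, an alternative added after the data were seen. Leaving out 1 library gave -1.11 to -0.83, -0.90 to -0.58 and -0.71 to -0.57, the smallest without bulk replicate 2 for C1qa and C1qb. On the score, 2500 minus 20000 cells was 0.97, 0.61 and 0.81. Library totals also turned Fcna (0.019), Emilin1 (0.52), Slc40a1 (0.12) and Dpp4, an endothelial list gene (0.34), and gave 10737 genes higher, 3654 lower and 20 complement genes higher, so that 74.6% of calls were higher, against 52.0% with TMM. Subunit shares in bulk liver were 26.1% for C1qa and 33.5% for C1qc by counts, and 31.5%, 46.7% and 21.8% per exon base (added later); in sorted cells C1qc was 36.9% by counts, and the shares were 27.6%, 47.9% and 24.5% per exon base. C1q over Kupffer markers was 0.296 in bulk liver and 0.243 in sorted cells without Csf1r, 0.539 and 0.302 in TPM and 0.619 and 0.684 over 6 markers.

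Counts between cell numbers were unstable. For 2500 against 20000 cells, 12 genes were higher and 50 lower; this became 92 and 305 without a filter (2 complement genes higher), 91 and 170 with DESeq2 (2 complement genes higher), and 0 to 15 higher and 19 to 53 lower with 1 library left out, with 0 to 1 complement genes lower. The lowest counts higher came without a 20000-cell library. Across 4 cell numbers, the 44 genes became 605 without a filter (4 complement genes), 293 with DESeq2 (3 complement genes) and 20 to 104 with 1 library left out (0 to 1 complement genes). Replicate numbers did not pair the samples (same-numbered libraries correlated at -0.083 to 0.061 over 26 pairs), and with a replicate block 0 complement genes were lower, as the call of Cd93 ended at an adjusted p of 0.0600. Between sorted cells and bulk liver the replicate block ended the call of Cd36 (adjusted p = 0.0597) and let Axl pass (0.0459).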
